A study of Mus musculus with 21 samples.

Results

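The genes described here are 6 genes whose protein products are known to bind copper or belong to the amyloid precursor protein, prion and synuclein families: App, Aplp1, Aplp2, Prnp, Bace1 and Sncb. They were chosen by symbol, and all 6 were present in both deposited count tables, which hold the same 21872 gene symbols. Their RNA was measured by RNA sequencing of mouse brain from animals given water (control) or TETA, which is trientine, a drug that chelates copper. The submitters describe the TETA animals as copper-deficient. Embryonic day 18.5 (E18.5) is represented by 6 libraries of each kind, and the age of 7 weeks by 5 control and 4 TETA libraries. The E18.5 libraries of each kind are numbered from 1-1 to 3-2. The meaning of the 2 parts of these numbers is not stated, and each library was treated as a replicate. The protocol names prefrontal cortex and male animals for 7 weeks only, so the region and sex of the E18.5 samples were taken as not stated. Strain, dose and duration were also taken as not stated, and no label says that 2 libraries of a group came from separate animals. The p-values below therefore measure the spread between these libraries, which may be technical.

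Amyloid precursor protein (APP, from App) and the amyloid precursor-like proteins (from Aplp1 and Aplp2) are membrane proteins of neurons and other cells that are cut in turn by secretases. BACE1, from Bace1, is the beta-secretase, an aspartyl protease whose cut of APP starts the formation of amyloid-beta and whose cytoplasmic tail can bind copper. The prion protein PrP, from Prnp, is anchored to the cell surface and binds copper through repeats near its N-terminus. Beta-synuclein, from Sncb, is a presynaptic protein of neurons.

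The genes lie on 5 chromosomes of the GRCm38 (mm10) build in the GENCODE M21 annotation. App is at chr16:84949685-85173766 on the minus strand, Aplp1 at chr7:30434982-30445535 on the minus strand, and Aplp2 at chr9:31149557-31211815 on the minus strand. Prnp is at chr2:131909928-131938429 on the plus strand, Bace1 at chr9:45838580-45864399 on the plus strand, and Sncb at chr13:54758860-54766595 on the minus strand. Counts cover the exons of each gene as a whole, so splice forms were not separated. Exons of Bace1 share 975 bases with Rnf214, 951 with Gm49338 and 135 with Gm16536 on the opposite strand, and exons of App share 113 bases with the antisense RNA Gm49227. The library kit keeps strand, but whether strand was used in counting is not given in the sources used here, so reads in those stretches carry some doubt. Prnp shares 145 exon bases with Prn on the same strand.

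The promoters are shown because the 6 genes, which belong to different families, were all higher at the later age. RefSeq (GRCm38.p6) gave a promoter window for 5 of the 6 genes, all but Bace1. Each of the 4 sequences printed is the 250 bases before the gene's RefSeq start, 5′ to 3′ on the strand of the gene, and the capitals mark every GC box (GGGCGG, searched on both strands). The window of App overlapped an annotated exon by 59 bases and is not printed.
Aplp1, chr7:30445583-30445832, minus strand: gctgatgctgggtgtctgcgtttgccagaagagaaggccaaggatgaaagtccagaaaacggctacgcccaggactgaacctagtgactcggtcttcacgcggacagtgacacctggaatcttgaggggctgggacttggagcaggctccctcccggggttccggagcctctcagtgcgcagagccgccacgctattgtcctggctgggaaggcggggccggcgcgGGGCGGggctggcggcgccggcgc
Aplp2, chr9:31211849-31212098, minus strand: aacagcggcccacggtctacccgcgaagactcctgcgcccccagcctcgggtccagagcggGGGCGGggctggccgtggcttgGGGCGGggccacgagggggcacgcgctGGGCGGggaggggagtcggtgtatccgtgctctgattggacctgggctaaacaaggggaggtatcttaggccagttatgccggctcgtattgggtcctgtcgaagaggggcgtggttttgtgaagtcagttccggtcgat
Prnp, chr2:131909678-131909927, plus strand: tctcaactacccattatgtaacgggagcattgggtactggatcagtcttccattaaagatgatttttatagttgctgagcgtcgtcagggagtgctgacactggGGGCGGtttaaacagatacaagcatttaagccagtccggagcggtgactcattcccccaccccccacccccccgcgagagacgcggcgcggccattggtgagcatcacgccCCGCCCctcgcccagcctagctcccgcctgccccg
Sncb, chr13:54766596-54766845, minus strand: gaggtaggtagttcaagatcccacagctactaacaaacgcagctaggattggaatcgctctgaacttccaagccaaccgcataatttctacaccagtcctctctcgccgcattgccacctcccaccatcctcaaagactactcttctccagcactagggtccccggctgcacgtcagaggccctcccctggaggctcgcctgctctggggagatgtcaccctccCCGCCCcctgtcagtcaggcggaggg
A GC box was present in all 5 windows, with 3 copies in Aplp2, 2 in Prnp and 1 each in App, Aplp1 and Sncb. The GC box of App, 55 bases before the RefSeq start, lies in the stretch that GENCODE annotates as exon. Of the RefSeq table, 32.7% of 32851 promoter windows held at least 1. The core of the metal response element (TGCGCNC or TGCACNC, both strands), the motif bound by the metal-sensing factor MTF1, matched 2 times in App, once in Aplp1 and once in Aplp2. It did not match in Prnp or Sncb, and 21.4% of all windows held a match. A TATA box (TATAAA, both strands) was found in Prnp and in none of the other 4 windows, against 12.4% of all windows. The CCAAT box (CCAAT, both strands) matched 2 times in Aplp2, 2 times in Prnp and once in Sncb, against 33.9% of all windows with a match. CpG dinucleotides numbered 23 in App, 20 in Aplp1, 22 in Aplp2, 17 in Prnp and 10 in Sncb, and the median over all windows was 6. These matches describe letters in the windows and were not tested as binding sites.

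The E18.5 libraries held 14678265 to 24308555 counts each, and the 7-week libraries 17838051 to 24035857. Of the E18.5 controls, replicates 1-1 and 1-2 had the lowest totals, 15131081 and 14678265, and the others had at least 20930008. Replicate 1-2 of each E18.5 group lay farthest from the median profile of its group (0.150 in control and 0.151 in TETA, as the root mean square of log2 differences over genes, against 0.0951 to 0.138 in the other E18.5 libraries). Markers of neurons were present in every group, with a sum of 2180 to 2330 CPM (counts divided by library size) in the E18.5 controls and of 8180 to 8380 in the 7-week controls. Markers of cortical excitatory neurons summed to 1520 to 1680 CPM and 2160 to 2330 CPM in the same groups. The 5 choroid plexus markers were each under a mean of 1 CPM at E18.5. At 7 weeks, markers of striatal projection neurons summed to 550 to 718 CPM in controls and 194 to 286 CPM in TETA, with 8 of 8 lower by edgeR's quasi-likelihood test and none at 0.

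Levels below are CPM scaled by TMM over all 21 libraries. Divided by the length of all annotated exons of a gene in kilobases, the control levels at E18.5 were 209 ± 6.59 CPM per kb for Aplp1, 92.0 ± 5.34 for Prnp and 46.8 ± 2.04 for App (SD, n = 6). They were 38.7 ± 2.81 for Sncb, 34.9 ± 1.54 for Aplp2 and 15.1 ± 0.398 for Bace1. The libraries of neighbours in this order did not overlap except Sncb and Aplp2, and the TETA libraries gave the same order with the same exception. At 7 weeks Prnp, at 376 ± 12 CPM per kb (SD, n = 5), and Aplp1, at 373 ± 8.72, overlapped at the top of the controls. App followed at 170 ± 2.22, then Sncb at 160 ± 4.21, Aplp2 at 109 ± 1.54 and Bace1 at 21.8 ± 0.831, with no overlap between these neighbours. In the 7-week TETA libraries Sncb at 167 ± 9.56 and App at 164 ± 3.16 CPM per kb overlapped (SD, n = 4). The top pair depends on the length used: with the longest coding transcript of each gene, Aplp1 lay above Prnp in the 7-week controls without overlap, at 480 against 404 CPM per kb.

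**Figure D1:**
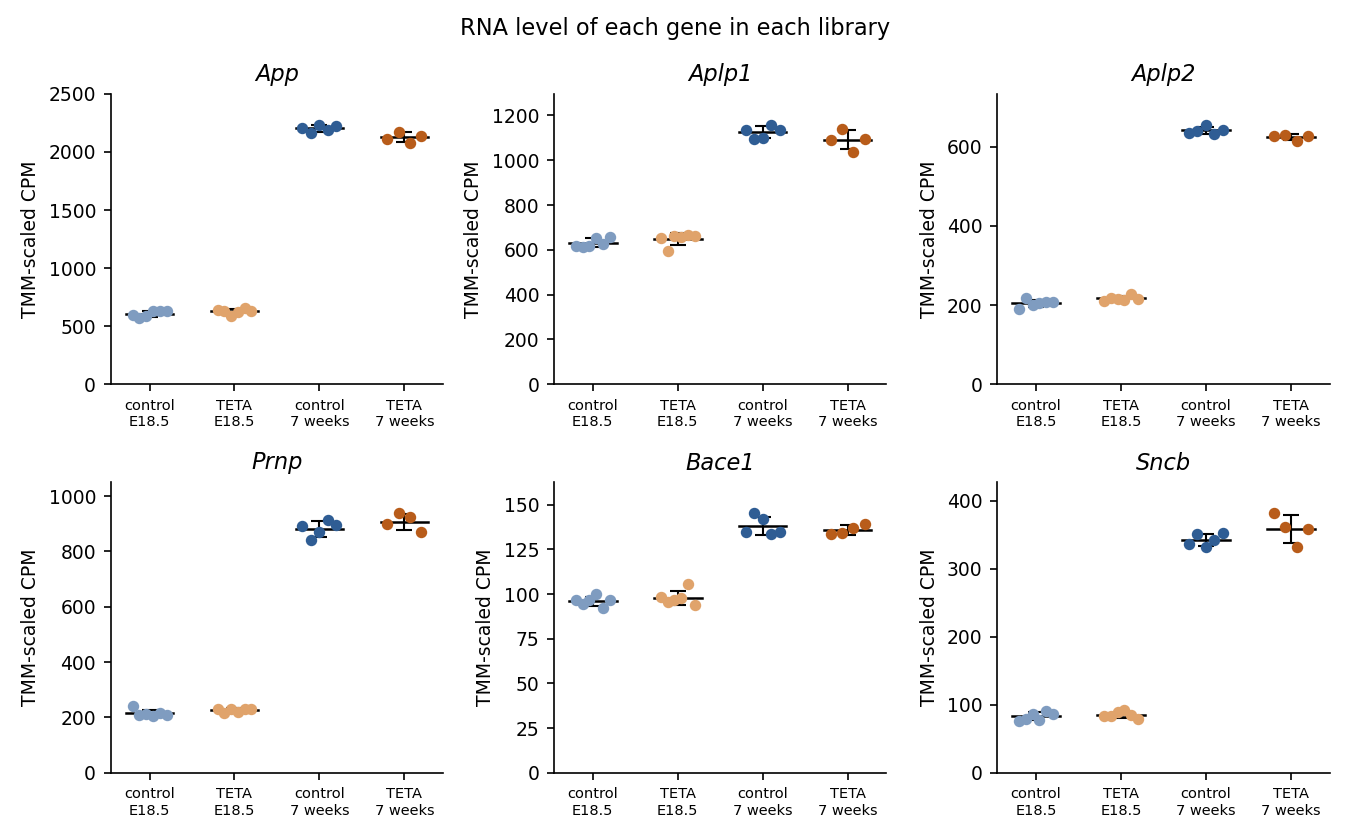
TMM-scaled CPM of each gene (y axis) in each library, by group (x axis); points are libraries, the long line is the mean and the bars are 1 SD (n = 6, 6, 5 and 4). All 7-week libraries lie above all E18.5 libraries for every gene, while control and TETA libraries of one age lie close together.

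The first comparison asks whether RNA of these genes differed between TETA and control at E18.5. None of the 6 passed the adjusted threshold of 0.05, and the background was 0 of 13794 genes tested (0.0%). In these bulk samples, fewer cells of a type and less RNA per cell cannot be told apart. The estimates ran from 1.82% to 5.78% higher in TETA, and the 95% confidence intervals of the 6 genes spanned 4.21% lower to 11.3% higher. All 6 estimates were above 0, against 48.2% of all genes tested, and the median of the 6 was 0.042 on the log2 scale, against -0.003 over all genes. The control and TETA libraries of all 6 genes overlapped, and separate groups were found for 0.319% of all genes. An absolute log2 difference under 0.1 was found for all 6 and for 82.0% of all genes. Over 22 alternative settings the log2 estimates ran from 0.017 to 0.060 for App, 0.032 to 0.064 for Aplp1, 0.063 to 0.101 for Aplp2 and 0.057 to 0.111 for Prnp. They ran from 0.005 to 0.038 for Bace1 and from -0.002 to 0.068 for Sncb, which was below 0 with voom library weights, so that 5 of the 6 were above 0 there.

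Among the substrates of the secretases, App had lowest, median and highest values of 573.7, 612.2 and 631.9 CPM in control and 588.7, 628.6 and 652.7 CPM in TETA. Aplp1 had 614.0, 622.4 and 659.2 CPM in control and 594.3, 659.7 and 664.7 CPM in TETA. Both pairs of groups overlapped, with 5 of the 6 TETA libraries of Aplp1 in the upper part of its range. The log2 difference was 0.043 for App (SE 0.0379, 95% interval -0.035 to 0.122) and 0.040 for Aplp1 (SE 0.0377, -0.038 to 0.119), with adjusted p = 0.996 for each in edgeR's quasi-likelihood test. Without TETA replicate 1-2, the lowest library of Aplp1, its difference was 0.064. Aplp2 had 191.1, 206.3 and 218.2 CPM in control and 210.7, 215.4 and 226.8 CPM in TETA. Its groups overlapped, but it had the only unadjusted p under 0.05 of the 6 (0.0338), beside 4.78% of all genes tested. Its log2 difference was 0.081 (SE 0.0357, 0.007 to 0.155, adjusted p = 0.996, edgeR).

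For the beta-secretase gene Bace1 the values were 92.42, 96.62 and 99.9 CPM in control and 93.98, 97.19 and 105.5 CPM in TETA, with a log2 difference of 0.026 (SE 0.0349, -0.047 to 0.099). For Prnp they were 206.7, 211.4 and 239.6 CPM in control and 214.8, 230.3 and 232.1 CPM in TETA. The highest Prnp value of the 12 libraries was control replicate 1-1, and the next control library lay at 217.7 CPM. The log2 difference of Prnp was 0.069 (SE 0.0400, -0.014 to 0.152), and 0.10 without control replicate 1-1, where its adjusted p was 1.0 in edgeR's test. For Sncb the values were 76.09, 82.93 and 91.1 CPM in control and 78.75, 84.55 and 91.61 CPM in TETA, with a log2 difference of 0.038 (SE 0.0482, -0.062 to 0.138). The adjusted p of each of these 3 genes was 0.996 in edgeR's test with all libraries. DESeq2 and limma voom with library weights also called 0 of the 6 genes at E18.5, where they called 10 and 8 of all genes.

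Of the cell type markers at E18.5, none passed in edgeR's test. The endothelial markers Flt1 (log2 difference 0.218, unadjusted p = 0.000405, adjusted p = 0.260, edgeR) and Pecam1 (0.221, unadjusted p = 0.00184, adjusted p = 0.604, edgeR) were higher in every TETA library than in any control library. The third endothelial marker tested, Cldn5, was at -0.067. The striatal marker Adora2a (-0.136, unadjusted p = 0.00952, adjusted p = 0.874, edgeR) was lower in every TETA library than in any control library. Gpr17 of oligodendrocyte precursors (-0.154) and Aqp4 of astrocytes (-0.170) had unadjusted p-values under 0.05, with groups that overlapped. Estimates were above 0 for 2 of 8 striatal, 2 of 3 precursor and 1 of 5 astrocyte markers, with the precursor marker Cspg4 at 0.139. The summed endothelial level was 80.9 to 93.7 CPM in control and 91.0 to 99.3 CPM in TETA, and the part of these markers in the differences of the 6 genes was not tested.

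At 7 weeks the same question gave 0 of 6 genes past the threshold, beside 9.96% of the 14240 genes tested. The estimates ran from 2.80% lower to 5.34% higher in TETA, with 95% intervals that spanned 6.24% lower to 10.9% higher. App, Aplp1, Aplp2 and Bace1 had estimates below 0, and Prnp and Sncb above 0, against 50.1% of all genes above 0. The median of the 6 was -0.019 on the log2 scale, against 0.0 over all genes, and the absolute log2 difference was under 0.1 for all 6 and for 61.2% of all genes. Over 15 alternative settings the estimates ran from -0.052 to -0.025 for App, -0.055 to -0.012 for Aplp1, -0.032 to -0.011 for Aplp2, 0.035 to 0.074 for Prnp and 0.043 to 0.109 for Sncb.

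App measured 2206, 2162, 2235, 2191 and 2226 CPM in the controls and 2111, 2176, 2080 and 2141 CPM in TETA. Its groups overlapped only through TETA replicate 2 and control replicate 2. The log2 difference was -0.041 (SE 0.0234, -0.089 to 0.008, adjusted p = 0.307, edgeR). Aplp1 measured 1135, 1096, 1100, 1159 and 1134 CPM in the controls and 1091, 1141, 1038 and 1096 CPM in TETA, and its groups overlapped. The log2 difference of Aplp1 was -0.033 (SE 0.0288, -0.093 to 0.027, adjusted p = 0.542, edgeR). Aplp2 measured 635.3, 641.0, 655.8, 632.2 and 642.3 CPM in the controls and 627.2, 630.4, 614.6 and 627.6 CPM in TETA. Every TETA library of Aplp2 lay below every control library, the only such separation among the 6 genes at either age, beside 11.2% of all genes at 7 weeks. The log2 difference was -0.026 (SE 0.0253, -0.079 to 0.026, adjusted p = 0.579, edgeR).

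Bace1 measured 134.8, 145.3, 142.1, 133.7 and 134.6 CPM in the controls and 133.5, 134.3, 137.0 and 139.5 CPM in TETA. Its groups overlapped and the log2 difference was -0.011 (SE 0.0351, -0.084 to 0.063, adjusted p = 0.896, edgeR). Its direction turned without TMM scaling (0.005) and without control replicate 2 (0.008). Prnp measured 890.9, 840.5, 868.5, 913.6 and 896.0 CPM in the controls and 897.5, 938.2, 922.8 and 871.4 CPM in TETA. Its groups overlapped too, with a log2 difference of 0.052 (SE 0.0307, -0.012 to 0.116, adjusted p = 0.318, edgeR). Sncb measured 336.0, 351.3, 332.0, 342.4 and 352.4 CPM in the controls and 381.9, 361.3, 331.9 and 359.3 CPM in TETA. Of the TETA libraries of Sncb, 3 lay above all controls and replicate 3 lay below them all. Its log2 difference was 0.075 (SE 0.0354, 0.001 to 0.149, adjusted p = 0.2, edgeR). The unadjusted p of Sncb, 0.0461, was the only one of the 6 under 0.05, beside 24% of all genes. DESeq2 and limma voom with library weights also called 0 of the 6 genes at 7 weeks.

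At 7 weeks the neuron markers summed to 8180 to 8380 CPM in control and 8070 to 8650 CPM in TETA, with 1 of 6, Snap25, higher in TETA (log2 difference 0.080, adjusted p = 0.0478, edgeR). Oligodendrocyte markers summed to 6590 to 7770 and 5850 to 6880 CPM, with 0 of 6 called and 3 at an unadjusted p under 0.05. Of the interneuron markers 2 of 5 were lower, with sums of 872 to 909 and 820 to 854 CPM. Single markers of other types also passed: Flt1 of endothelial cells (0.217, adjusted p = 0.0105, edgeR) and Neurod2 of cortical excitatory neurons (0.217, adjusted p = 0.0103, edgeR) were higher in TETA. Pdgfra of oligodendrocyte precursors (-0.194, adjusted p = 0.0328, edgeR) and Hes5 of progenitors (-0.439, adjusted p = 0.00192, edgeR) were lower. These lists were mixed. Estimates were above 0 for 2 of 4 endothelial, 3 of 5 cortical excitatory, 2 of 3 precursor and 2 of 5 progenitor markers tested, with the precursor marker Cspg4 at 0.216. Choroid plexus markers summed to 4.16 to 63.0 CPM in control (median 4.56) and 3.35 to 6.07 CPM in TETA, with replicate 4 the high control library and 1 of 4 tested markers, Clic6, lower in TETA (log2 -1.60, adjusted p = 0.00282, edgeR). Without control replicate 4, again 0 of the 6 genes passed at 7 weeks, and the 9 pathway genes called at 7 weeks and named below passed as before. Apart from that measurement, the part of these markers, and of the striatal markers given above, in the differences of the 6 genes was not tested.

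**Figure D2:**
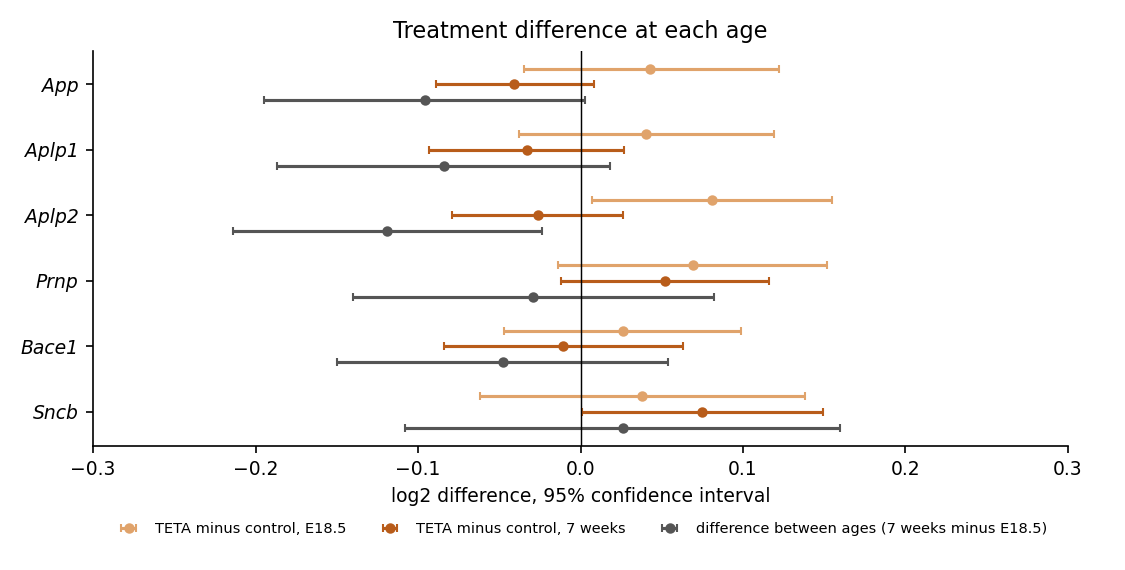
Log2 difference between TETA and control (x axis) for each gene at E18.5 and at 7 weeks, and the difference between those 2 effects; points are estimates and bars 95% confidence intervals from edgeR. All treatment estimates lie within 0.1 of 0, and the interval of Aplp2 for the difference between ages lies below 0 before adjustment.

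Whether the TETA effect differed between ages was tested as an interaction. It passed for 0 of 6 genes, beside 3.1% of 14660 genes, and the interaction of Aplp2 had an unadjusted p under 0.05, beside 15.9% of all genes. That estimate was -0.119 on the log2 scale (SE 0.0466, -0.214 to -0.024, adjusted p = 0.181, edgeR). The other 5 estimates ran from -0.096 for App to 0.026 for Sncb, with adjusted p-values of 0.335 to 0.905 in edgeR's test. The estimates of Prnp and Sncb were near 0 and turned direction under some alternatives. DESeq2 and limma voom also called 0 of the 6.

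The levels of the 2 ages were then compared. All 6 genes rose from E18.5 to 7 weeks in the controls, with no overlap between any gene's libraries. The background was large: 89.3% of 14660 genes passed in either direction, 44.0% were higher at 7 weeks, 45.3% were lower, and for 79.5% the libraries of the 2 ages did not overlap. The 2 ages were deposited as separate tables and the E18.5 region and sex are not stated, so age, table, region and sex cannot be told apart. The median of the 6 log2 differences was 1.75, against -0.02 over all genes. In the TETA libraries, which share no sample with the controls, all 6 were also higher at 7 weeks (88.1% of genes called, 43.6% higher, 80.3% without overlap), with a median of 1.65 against -0.014. Without TMM scaling the median of all genes moved to -0.167 in control and -0.125 in TETA, and the estimates of the 6 genes moved by about as much and stayed above 0.

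Sncb and Prnp had the largest rises among the 6. Sncb went from 82.98 ± 6.03 CPM (SD, n = 6) to 342.8 ± 9.04 CPM (SD, n = 5) in the controls, 4.12-fold, a log2 difference of 2.04 (SE 0.0455, adjusted p = 7.01e-28, edgeR). Prnp went from 215.6 ± 12.5 to 881.9 ± 28.2 CPM, 4.09-fold, a log2 difference of 2.03 (SE 0.0378, adjusted p = 5.86e-30, edgeR). A larger log2 difference was found in 10.6% of all genes for Sncb and in 10.7% for Prnp. In TETA the folds were 4.2 for Sncb, from 85.38 ± 4.71 to 358.6 ± 20.5 CPM, and 4.01 for Prnp, from 226.4 ± 7.45 to 907.5 ± 29.3 CPM.

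The 3 genes of the APP family rose by different amounts. App went from 607.6 ± 26.5 to 2204 ± 28.8 CPM in the controls, 3.63-fold (log2 1.86, SE 0.0336, adjusted p = 2.77e-30, edgeR), and from 626.7 ± 21.1 to 2127 ± 41.1 CPM in TETA, 3.39-fold. Aplp2 went from 204.9 ± 9.04 to 641.3 ± 9.08 CPM, 3.13-fold (log2 1.65, SE 0.0321, adjusted p = 2.15e-29, edgeR), and from 216.8 ± 5.64 to 625.0 ± 7.08 CPM in TETA, 2.88-fold. Aplp1 went from 631.1 ± 19.9 to 1125 ± 26.3 CPM, 1.78-fold (log2 0.83, SE 0.0344, adjusted p = 1.36e-20, edgeR), and from 649.4 ± 27.3 to 1092 ± 42.1 CPM in TETA, 1.68-fold. Larger log2 differences in the controls were found in 12% of genes for App, 14.2% for Aplp2 and 26.2% for Aplp1.

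Bace1 had the smallest rise of the 6, from 96.12 ± 2.53 to 138.1 ± 5.27 CPM in the controls, 1.44-fold (log2 0.52, SE 0.0342, adjusted p = 2.63e-15, edgeR). In TETA it went from 97.99 ± 3.98 to 136.1 ± 2.72 CPM, 1.39-fold. A larger log2 difference was found in 33.6% of all genes.

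**Figure D3:**
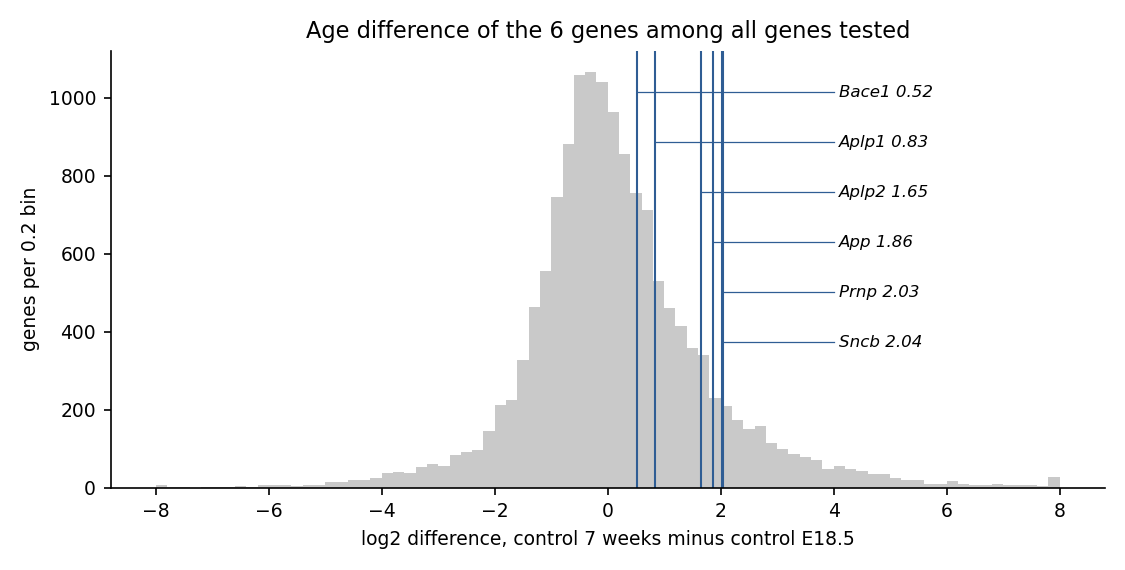
Histogram of the log2 difference between 7-week and E18.5 controls (x axis) over all genes tested, as genes per bin of 0.2 (y axis), with differences beyond 8 placed in the end bins and a line at each of the 6 genes. All 6 lie to the right of 0, from Bace1 at 0.52 to Sncb at 2.04.

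Summed RNA of cell type markers also differed between the ages. From E18.5 to 7 weeks in the controls, the neuron markers went from a sum of 2180 to 2330 CPM to one of 8180 to 8380 CPM, with 5 of 6 higher and 1 lower. Oligodendrocyte markers went from 61.1 to 71.2 CPM to 6590 to 7770 CPM (6 of 6 higher), astrocyte markers from 296 to 342 CPM to 1040 to 1200 CPM (5 of 5 higher), and microglia markers from 30.0 to 34.5 CPM to 243 to 271 CPM (5 of 5 higher). Neural progenitor markers went from 344 to 366 CPM to 39.2 to 44.4 CPM (6 of 6 lower). The part of these markers in the rise of the 6 genes was not tested.

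Because the 3 APP family genes rose unequally, their shares of the family's RNA differed between ages. In units of CPM, App made up 42.1% ± 0.757 of the sum of the 3 genes in the E18.5 controls (SD, n = 6) and 55.5% ± 0.348 in the 7-week controls (SD, n = 5). Aplp1 went from 43.7% ± 0.469 to 28.3% ± 0.561, and Aplp2 from 14.2% ± 0.687 to 16.2% ± 0.264. No library of one age overlapped the other in any of these 3 shares. Per kilobase of exon, Aplp1 stayed the largest of the 3 at both ages, at 71.9% ± 0.449 and 57.2% ± 0.713 of the per-kb sum, and App went from 16.1% ± 0.377 to 26.0% ± 0.353. TETA libraries gave CPM shares of 42.0% ± 1.13 and 55.3% ± 0.284 for App at the 2 ages. At each age the libraries of the 2 treatments overlapped.

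The log2 ratio of App to Bace1 CPM, substrate over enzyme, was 2.66 ± 0.0678 in E18.5 controls and 4.0 ± 0.0635 in 7-week controls. It was 2.68 ± 0.0517 and 3.97 ± 0.0424 in the TETA libraries of the same ages. The log2 ratio of App to Aplp1 was -0.055 ± 0.0359 and 0.97 ± 0.0372 in the controls, and -0.051 ± 0.0825 and 0.96 ± 0.0300 in TETA. Since the ratios are in CPM, only their difference between groups can be read. For these 2 ratios it was larger than the spread between libraries for age and not for treatment. The log2 ratio of Prnp to App was -1.50 ± 0.111 in E18.5 controls and -1.47 ± 0.0690 in E18.5 TETA libraries. At 7 weeks it was -1.32 ± 0.0427 in control (-1.36 to -1.26) and -1.23 ± 0.0520 in TETA (-1.30 to -1.17), a difference larger than either SD between groups that overlapped, and it was not tested.

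**Figure D4:**
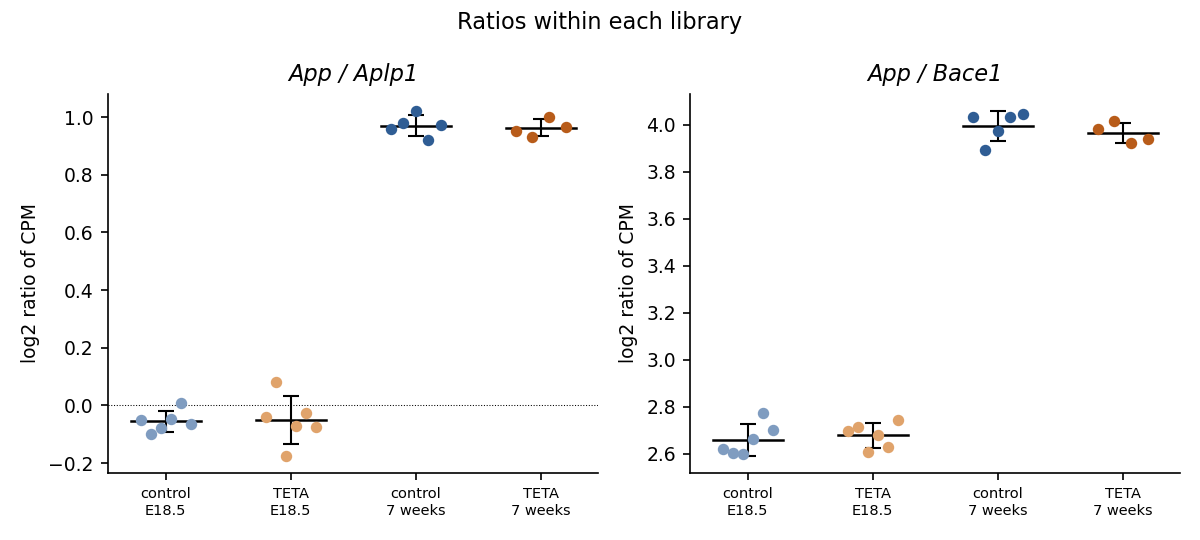
Log2 ratio of CPM of App over Aplp1 (left) and App over Bace1 (right) on the y axis in each library, by group on the x axis; points are libraries, lines means and bars 1 SD. Both ratios are higher at 7 weeks in every library, and control and TETA overlap at each age.

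Other genes of the pathway were taken as 5 lists of 62 genes: relatives of the families, secretases, adaptor and trafficking proteins, proteins that clear amyloid-beta, and substrates of BACE1 with partners of PrP. At E18.5, 0 of 59 genes tested passed in edgeR's test, beside 0.0% of all genes, with 4 at an unadjusted p under 0.05 (4.78% of all genes) and a median log2 difference of 0.017 against -0.003. At 7 weeks, 2 of 61 were higher in TETA and 7 lower, beside 5.67% and 4.28% of all genes, with a median of -0.012 against 0.0.

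Both genes that rose at 7 weeks code for trafficking proteins. Gga3, whose protein sorts BACE1 toward lysosomes, rose from 65.56 ± 1.23 to 74.10 ± 1.83 CPM (log2 0.19, SE 0.0359, adjusted p = 0.00196, edgeR). Bin1, a membrane-bending protein of endocytosis, rose from 239.7 ± 5.88 to 262.5 ± 6.65 CPM (log2 0.14, SE 0.0313, adjusted p = 0.00578, edgeR). Neither gene's groups overlapped.

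Of the 7 genes that fell, Scn4b, a sodium channel subunit cut by BACE1, had the largest difference. It measured 307.3 ± 21.9 CPM in control and 160.0 ± 21.6 in TETA (log2 -0.93, SE 0.0672, adjusted p = 1.83e-08, edgeR). Mme, which codes for the amyloid-beta-degrading protease neprilysin, went from 12.56 ± 2.48 to 8.448 ± 1.51 CPM (log2 -0.56, adjusted p = 0.00932, edgeR), and its groups overlapped. Bace2, the relative of Bace1, went from 5.757 ± 0.602 to 4.027 ± 0.527 CPM (log2 -0.50, adjusted p = 0.0120, edgeR). Without TETA replicate 3 its adjusted p was 0.0589, at a log2 difference of -0.42.

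Clu, which codes for the amyloid-beta-binding chaperone clusterin, fell from 770.0 ± 24.4 to 672.2 ± 29.4 CPM (log2 -0.19, adjusted p = 0.000919, edgeR). Sez6, a BACE1 substrate of dendrites, had a log2 difference of -0.18 (adjusted p = 0.00759, edgeR), and its groups overlapped (control from 207.5 CPM, TETA up to 210.3 CPM). Sprn, which codes for the prion-like protein Shadoo, had -0.13 (adjusted p = 0.00989, edgeR), and Rpsa, a ribosomal protein reported as a PrP-binding receptor, -0.13 (adjusted p = 0.0162, edgeR). The call of Rpsa was lost without TETA replicate 1 (adjusted p = 0.0520) and without TETA replicate 4 (0.0569). Striatal projection neuron markers fell in the same libraries, as given above, and astrocyte markers summed to 1040 to 1200 CPM in control and 1050 to 1090 CPM in TETA. Of the astrocyte markers 1 of 5, Aldh1l1, passed (-0.208, adjusted p = 0.0240, edgeR), and at an unadjusted p under 0.05 Gfap (-0.125) and Slc1a3 (-0.105) were lower and Gja1 (0.098) higher. Their part in these differences was not tested.

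The interaction passed for 2 of the 61 genes, a share near the 3.1% of all genes tested. They were Gga3 (interaction 0.21, SE 0.0525, adjusted p = 0.0223, edgeR) and Clu (-0.24, SE 0.0631, adjusted p = 0.0268, edgeR). For the other 7 genes called at 7 weeks the interaction did not pass, with adjusted p-values from 0.113 for Sez6 to 0.556 for Sprn in edgeR's test. Scn4b was near the lower limit of counting at E18.5, at 0.4528 ± 0.211 CPM in the controls.

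Between ages in the controls, 34 of the 61 pathway genes rose, 18 fell and 9 did not pass, beside 44.0% of all genes higher and 45.3% lower, with a median log2 difference of 0.32 against -0.02 over all genes. All 3 relatives tested rose, with the largest changes in Sprn, from 62.33 to 306.8 CPM (log2 2.30), and in Sncg, or gamma-synuclein, from 0.1287 to 1.086 CPM. Prnd was too low to be tested.

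Among the secretases 5 of 11 were higher, near the background, and 4 lower, with a median of 0.018. Bace2 (log2 2.58) and Aph1c, a gamma-secretase subunit (1.45), rose most, while its paralog Aph1b (-1.11) and the alpha-secretase Adam17 (-0.46) fell most. Aph1b and Aph1c are close copies, so the division of reads between them is uncertain. Of the adaptors and trafficking genes 14 of 22 rose and 5 fell, beside 44.0% and 45.3% of all genes. Itm2c (3.53), an inhibitor of APP processing, and Sorl1 (2.64), a sorting receptor for APP, rose most. Dab1 (-1.43), the adaptor of reelin signalling that also binds APP, and Gga2 (-1.0) fell most in that list.

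Of the clearance genes 6 of 9 rose, beside 44.0% of all genes, and Ece2 (-0.88), a peptidase, was the single gene that fell. Clu (3.92) and Apoe (3.41), the main lipid carrier of the brain, rose most. Of the BACE1 substrates and PrP partners 6 of 16 were higher and 8 lower, shares near the 44.0% and 45.3% of all genes. The sodium channel subunits Scn4b (9.44) and Scn2b (4.43) rose most, and the axonal adhesion proteins Chl1 (-2.13) and Cntn2 (-1.80) fell most. Each of the age differences named here had an adjusted p of at most 6.61e-07 in edgeR's test.

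**Figure D5:**
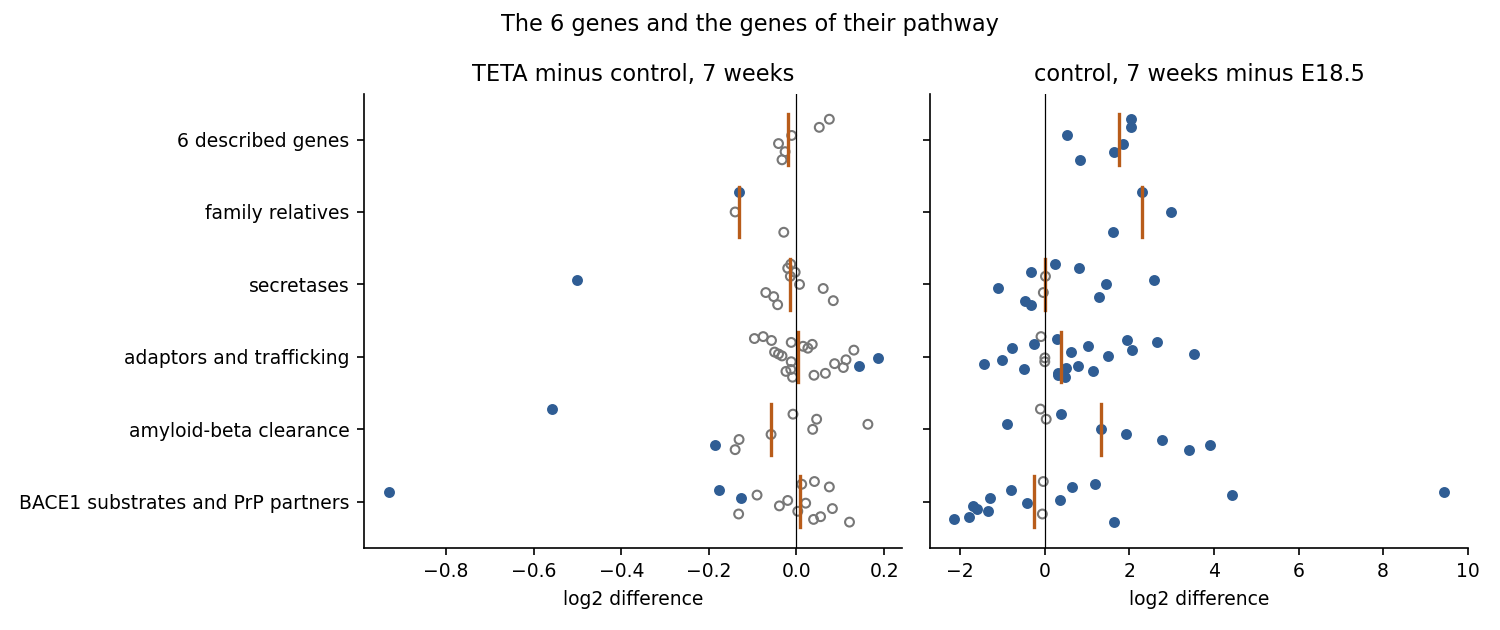
Log2 difference (x axis) of the 6 genes and of each pathway list (y axis) for TETA against control at 7 weeks (left) and for 7 weeks against E18.5 in controls (right); filled points passed the adjusted threshold, open points did not, and the vertical bar is the list median. None of the 6 genes is filled on the left, and all 6 are filled to the right of 0 on the right.

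Likeness to other genes was measured as the root mean square difference of log2 CPM over the 21 libraries, each gene centred on its own mean, among 9148 genes with a mean of at least 10 CPM at both ages. The libraries share their ages, tables and scaling, and the age difference of each gene enters the measure. Clstn1 (0.0402) was near App. The nearest genes to Aplp2 were Nfe2l1 (0.0446) and Atp2a2 (0.0505), and to Aplp1 they were Psd (0.0373) and Arfgap1 (0.0445). Those nearest to Bace1 were Tmem181a (0.0446) and Cltb (0.0475), to Prnp Gabarapl1 (0.0711) and Flywch1 (0.0753), and to Sncb Panx2 (0.0669) and Ahcyl2 (0.0775). Among the 6, the nearest pairs were Prnp with Sncb (0.104), App with Aplp2 (0.123), App with Prnp (0.125), App with Sncb (0.150) and Aplp1 with Bace1 (0.159). Many other genes were nearer than these: 46 genes were nearer to Prnp than Sncb was, 173 nearer to App than Aplp2 was, and 1032 nearer to Aplp1 than Bace1 was.

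Some members varied little between libraries of a group. In the 7-week controls the SD of log2 CPM was 0.0189 for App and 0.0203 for Aplp2. The median was 0.0648 over the genes with a mean of at least 10 CPM at both ages, which were not matched for level. Of those genes, 1.80% varied less than App and 2.25% less than Aplp2. In the 7-week TETA libraries Aplp2 had an SD of 0.0164, with 1.99% of those genes varying less, and Sncb had 0.0833, with 68.7% varying less. At E18.5 Sncb was the most variable of the 6 in both groups, with SDs of 0.105 in control and 0.0796 in TETA.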

How the data were processed

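The deposited data are raw counts by gene symbol, in a table per age whose columns are the libraries, per the file headers. The submitters' processing notes name STAR 2.7.1a, featureCounts 2.0.1 and the mm10 build, without their settings. In the E18.5 table there are 1940 genes with no count in control replicate 1-1 but some in another library, and all their counts are multiples of 11; those counts were divided by 11, and none of the 6 genes was among them. No replicate pair agreed within counting noise (lowest chi-square per gene 2.30).

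Genes were kept by filterByExpr (minimum count 10) and libraries scaled by TMM. Each age was fitted alone, and both ages together for the age contrasts and the interaction, with edgeR 4.0.16's quasi-likelihood test in R 4.3.3 and Benjamini-Hochberg adjustment over all genes tested (threshold 0.05). Alternatives used DESeq2 1.42.0, limma 3.58.1 (voom with library weights), no TMM, other filters, undivided or summed E18.5 counts, a replicate block, and each library left out in turn. Tables and figures used pandas 2.3.3, numpy 2.4.6 and matplotlib 3.10.9 in Python 3.11.15. Lengths and positions came from GENCODE M21 and promoters from RefSeq.

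All 6 genes were named in every comparison; of the lists, every gene past the threshold for treatment, and the 2 largest changes per direction and list for age; for likeness, the 2 nearest genes, of which 1 for App is not reported here. The members and lists were chosen with earlier results of these data known. Intervals for single genes are at 95%.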

Additional observations from a re-analysis of the deposited data

Results flagged for a closer look

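In 24 combinations of gene and group the most distant library was compared with the rest of its group; chance alone would single out about 1 in 20 such groups, here 1.2, and 2 were singled out. Aplp1 in the E18.5 TETA group was low in replicate 1-2, at 594.3 CPM against 653.9 to 664.7 CPM in the others. On the log2 scale its gap was 0.854 of the group's range. Without that library the treatment difference of Aplp1 at E18.5 was 0.064 on the log2 scale instead of 0.040 (adjusted p = 0.757, edgeR). Prnp in the E18.5 control group was high in replicate 1-1, at 239.6 CPM against 206.7 to 217.7 CPM. On the log2 scale its gap was 0.648 of the range. Without that library the treatment difference of Prnp was 0.10 instead of 0.069 (adjusted p = 1.0, edgeR).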

How the results depend on the processing

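The number of the 6 genes past the threshold was 0 for treatment at E18.5 under 22 alternatives, 0 at 7 weeks under 15, 0 for the interaction under 28, and 6 for each age contrast under 28. Directions turned in 6 cases, all of estimates near 0 that were not called. For treatment these were Sncb at E18.5 with voom weights (-0.002), and Bace1 at 7 weeks without TMM (0.005) and without control replicate 2 (0.008; -0.022 to 0.008 over the libraries left out). For the interaction they were Prnp without TMM (0.008) and Sncb without E18.5 control replicate 3-1 (-0.003) and without 7-week TETA replicate 1 (-0.006; -0.006 to 0.061 over the libraries left out). Over all alternatives the log2 age difference in controls ran from 1.71 to 1.91 for App, 0.69 to 0.88 for Aplp1, 1.5 to 1.70 for Aplp2, 1.89 to 2.08 for Prnp, 0.38 to 0.57 for Bace1 and 1.90 to 2.09 for Sncb. Over all genes, the calls at E18.5 were 0 with edgeR, 10 with DESeq2, 8 with voom weights, 2 with libraries of the same first number summed, 3 without control replicate 3-2, 7 without TETA replicate 1-2, and 3 without control 1-1 and 1-2 and TETA 1-2, a choice made after seeing the data. At 7 weeks they were 1418, and 927 without TETA replicate 3. The interaction had 454, 696 with voom weights and 290 without 7-week TETA replicate 3. The causes were not tested.

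Same-numbered libraries did not all vary together (correlation of deviations -0.275 to 0.284 over 6 pairs at E18.5 and -0.0692 to -0.0295 over 4 pairs at 7 weeks), and 4 of 12 and 0 of 8 libraries correlated best with their own number. With the replicate block 0 of the 6 genes passed at either age, and 0 and 1072 of all genes; of the named genes, Bace2 (adjusted p = 0.0530) and Rpsa (0.0695) no longer passed at 7 weeks.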
